A study of Mus musculus with 17 samples.

Results

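Interferon receptors are pairs of chains held to Janus kinases (JAKs), and the genes described here are 4 receptor chains that lie together on mouse chromosome 16, their 2 partner chains encoded on other chromosomes, and the 3 kinases that these chains use. The 9 genes were taken by name from deposited tables of 55385 genes: Ifnar1, Ifnar2, Ifngr2 and Il10rb, which lie in the duplicated segment of chromosome 16, and Ifngr1, Il10ra, Jak1, Jak2 and Tyk2, which lie outside it. All 9 were found and all 9 passed the filter on low counts, which kept 18983 genes for testing. The samples were hippocampi of 17 adult mice, 1 library of polyadenylated RNA per mouse. Dp16_2xIFNRs mice (n = 5, 3 females and 2 males, 17.7 to 18.0 weeks old) carried the Dp16 duplication with the interferon receptor dosage brought back to normal, per the labels. Dp16 mice (n = 6, 3 females and 3 males, 17.1 to 18.0 weeks old) carried the duplication alone, and are used as a model of Down syndrome. WT mice (n = 6, 3 females and 3 males, 17.1 to 18.0 weeks old) were wild-type C57BL/6J. The strain background of the 2 duplication groups and the way the receptor dosage was normalized are not given in the sources used here, and the labels list no treatment.

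As background, a type I interferon binds IFNAR2 and IFNAR1 together, which brings the kinases TYK2 (on IFNAR1) and JAK1 (on IFNAR2) side by side. Interferon gamma binds IFNGR1, which carries JAK1, and recruits IFNGR2, which carries JAK2. IL10RB is an accessory chain carrying TYK2 that is shared by the receptors of interleukin 10 (with IL10RA, which carries JAK1), of type III interferons and of interleukin 22. The activated kinases phosphorylate STAT proteins, which enter the nucleus and switch on target genes. In brain, most cell types carry type I interferon receptors, and IL10RA is best known from microglia.

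Each mouse had its own identifier, so libraries were taken as biological replicates. Counts per library totalled 30.7 to 31.6 M (M, mega) for Dp16_2xIFNRs mice, 30.4 to 33.1 M for Dp16 mice and 30.4 to 32.9 M for WT mice. Markers of hippocampal regions (Prox1, C1ql2, Wfs1 and Neurod6, 4 of 4 detected) summed to 456 to 596 CPM (counts per M, scaled) in Dp16_2xIFNRs, 466 to 591 CPM in Dp16 and 418 to 581 CPM in WT, so the labelled tissue was seen in every library. In 1 library of each group, Dp16_2xIFNRs replicate 5, Dp16 replicate 6 and WT replicate 6, markers of choroid plexus, the epithelium that makes cerebrospinal fluid, were nearly missing: they summed to 77.7, 45.8 and 37.5 CPM, against 2240 CPM or more in the other libraries. Results that rest on these 3 libraries are given with and without them.

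The 4 triplicated chains lie on the plus strand within 192.8 kb of chromosome 16 (GRCm38), in the order Ifnar2 (ENSMUSG00000022971.18, chr16:91372783-91405589), Il10rb (ENSMUSG00000022969.13, chr16:91406164-91425834), Ifnar1 (ENSMUSG00000022967.13, chr16:91485238-91507441) and Ifngr2 (ENSMUSG00000022965.8, chr16:91547072-91565623). Ifngr1 (ENSMUSG00000020009.13) lies on the plus strand at chr10:19591949-19610229, and Il10ra (ENSMUSG00000032089.16) on the minus strand at chr9:45253837-45269149. Of the kinases, Jak1 (ENSMUSG00000028530.14) lies on the minus strand at chr4:101152367-101265282, Jak2 (ENSMUSG00000024789.13) on the plus strand at chr19:29251828-29313080, and Tyk2 (ENSMUSG00000032175.11) on the minus strand at chr9:21104068-21131243. Ifnar2 and Il10rb share 315 and 569 exon bases with Gm21970, a gene model that spans both on the same strand, and Gm21970 had 0 counts in all 17 libraries. How reads over shared bases were counted is not given in the sources used here. If such reads were left out, the RPKM of Ifnar2 and Il10rb, and ranks and ratios made from it, are affected. Tyk2 shares 554 exon bases with the antisense gene 1700084C06Rik, and the strand setting of the counting is not given either, so its counts are less certain too.

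The promoters of the chains are shown because 3 of them belong to triplicated genes called in both comparisons with Dp16. RefSeq (GRCm38.p6) gave a promoter for 7 of the 9 members, all but Il10rb and Il10ra. Each line runs from 5′ to 3′ on the plus strand, over the 250 bases before the gene's start in RefSeq. For Ifnar1 and Ifngr2 these windows end short of the starts given above, which came from GENCODE M21. The windows are chr16:91484965-91485214 for Ifnar1, chr16:91372533-91372782 for Ifnar2, chr16:91546809-91547058 for Ifngr2 and chr10:19591699-19591948 for Ifngr1, the partner outside the segment. Capitals mark matches on either strand to the GC box (GGGCGG) or to the core of the gamma-activated sequence (TTCNNNGAA).
Ifnar1: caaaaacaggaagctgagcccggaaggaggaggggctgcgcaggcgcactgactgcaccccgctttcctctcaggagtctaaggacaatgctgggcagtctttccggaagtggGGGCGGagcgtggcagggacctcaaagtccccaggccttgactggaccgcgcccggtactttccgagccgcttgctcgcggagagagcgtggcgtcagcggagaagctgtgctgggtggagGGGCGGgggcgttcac
Ifnar2: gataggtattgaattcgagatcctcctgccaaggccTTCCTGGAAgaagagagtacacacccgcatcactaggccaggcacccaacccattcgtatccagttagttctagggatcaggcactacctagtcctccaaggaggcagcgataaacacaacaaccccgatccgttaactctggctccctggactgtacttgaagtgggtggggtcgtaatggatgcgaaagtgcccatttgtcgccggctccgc
Ifngr2: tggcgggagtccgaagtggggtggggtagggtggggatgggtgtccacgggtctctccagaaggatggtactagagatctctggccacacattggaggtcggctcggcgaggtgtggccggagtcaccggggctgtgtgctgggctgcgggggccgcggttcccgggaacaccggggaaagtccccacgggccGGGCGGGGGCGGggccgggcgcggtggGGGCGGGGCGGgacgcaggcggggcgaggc
Ifngr1: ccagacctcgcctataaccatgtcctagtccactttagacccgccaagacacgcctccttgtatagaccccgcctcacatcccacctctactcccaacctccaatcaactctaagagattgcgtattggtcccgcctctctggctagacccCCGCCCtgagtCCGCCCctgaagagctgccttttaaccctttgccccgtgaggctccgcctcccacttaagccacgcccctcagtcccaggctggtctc
The 3 triplicated promoters were unlike each other in these letters. Ifngr2 held 4 GC boxes, of which the last pair overlaps by 1 base, at a GC content of 74.0%. Ifnar1 held 2 GC boxes at 65.6% GC, Ifngr1 held 2 at 59.2% GC, and Ifnar2 held none at 54.0% GC. Ifnar2 alone among the 7 promoters held the gamma-activated core, which does not overlap another motif. None of the 7 held the core of the interferon-stimulated response element (GAAA, any 2 bases, GAAA, searched on both strands). Over 32851 promoters of the same length, 32.7% held a GC box, 7.02% the gamma-activated core and 2.98% the interferon-stimulated core. These matches describe letters and say nothing of binding.

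Ifnar1, which encodes the TYK2-bound chain of the type I interferon receptor, had 11.8, 12.4, 11.2, 12.5 and 11.7 RPKM (reads per kilobase and M counts, the authors' length-scaled level) in the 5 Dp16_2xIFNRs mice. Its level was 15.5, 16.3 and 17.03 RPKM (lowest, median, highest) in Dp16 and 9.74, 10.3 and 12.5 RPKM in WT. Every Dp16 mouse lay above every mouse of the other groups, while the Dp16_2xIFNRs and WT ranges overlapped because of 1 WT mouse at 12.5 RPKM. Ifnar2, the high-affinity chain of the same receptor, had 5.88, 6.19, 5.50, 5.80 and 4.80 RPKM in Dp16_2xIFNRs. Its level was 7.34, 8.82 and 9.11 RPKM in Dp16 and 4.62, 5.76 and 6.58 RPKM in WT. Again no Dp16 mouse came as low as any mouse of the other groups, and the Dp16_2xIFNRs values lay inside the WT range.

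Ifngr2, the signalling chain of the interferon gamma receptor, had 14.0, 13.7, 13.9, 14.2 and 14.5 RPKM in Dp16_2xIFNRs. Its level was 19.7, 22.0 and 24.7 RPKM in Dp16 and 12.5, 14.1 and 15.3 RPKM in WT. The Dp16 mice stood apart from both other groups, and the Dp16_2xIFNRs mice spanned less than 1 RPKM in the middle of the WT range. Il10rb, the shared accessory chain, had 4.45, 4.18, 4.64, 4.70 and 3.77 RPKM in Dp16_2xIFNRs. Its level was 4.44, 6.58 and 7.06 RPKM in Dp16 and 3.58, 4.32 and 5.00 RPKM in WT. Here 5 of the 6 Dp16 mice lay above all others, and the sixth, Dp16 replicate 6, lay among the WT and Dp16_2xIFNRs mice.

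**Figure D1:**
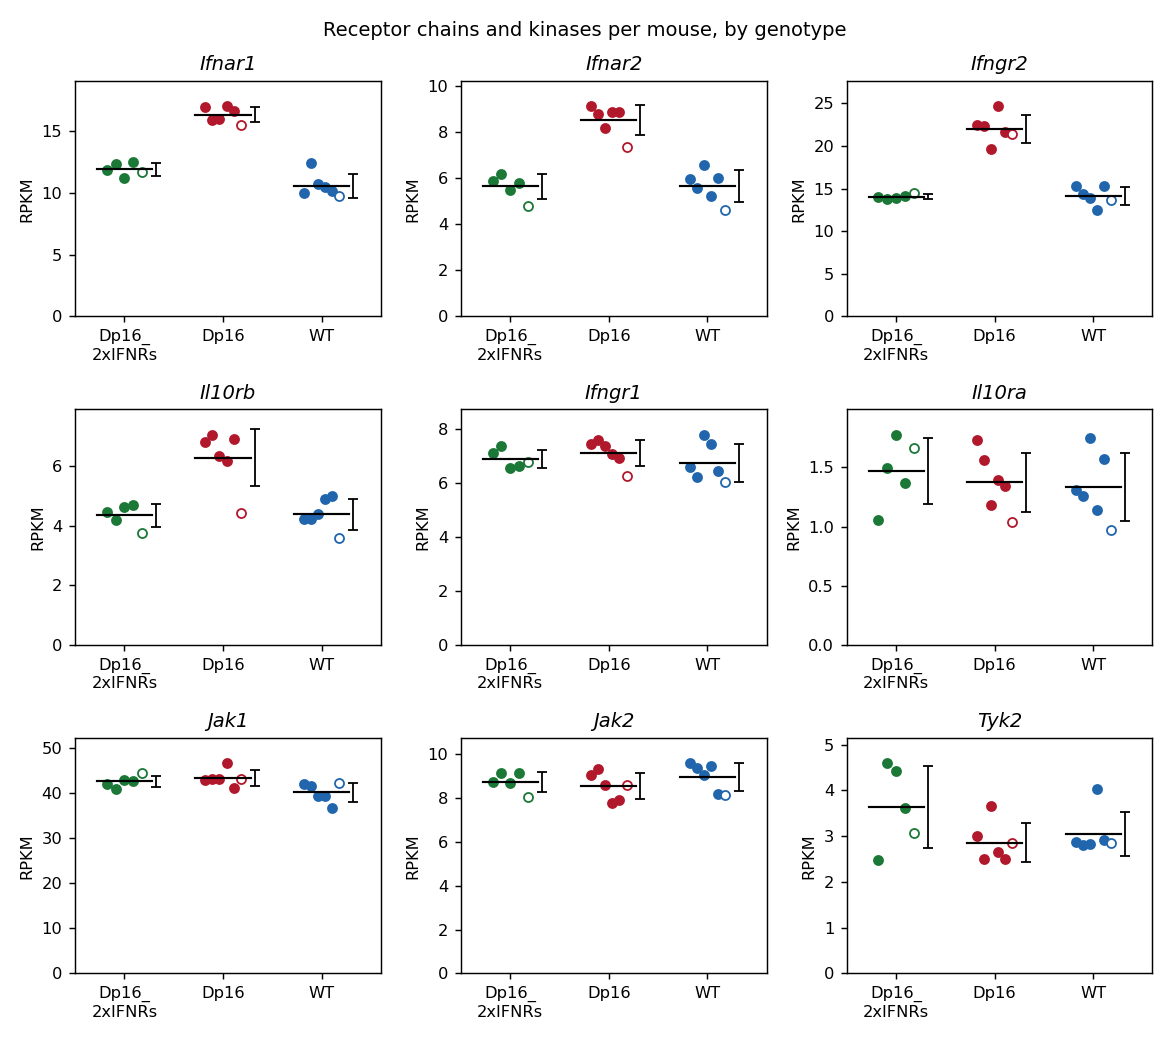
Level of the 9 genes per mouse (vertical axes, RPKM from 0) in Dp16_2xIFNRs, Dp16 and WT; each point is 1 mouse, the line is the group mean, the bar is 1 SD, and open points are the 3 libraries nearly free of choroid plexus markers. Ifnar1, Ifnar2 and Ifngr2 of all 6 Dp16 mice lie above every other mouse, Il10rb of Dp16 replicate 6 (4.44 RPKM) lies among the other groups, and the remaining 5 genes overlap between groups.

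The first comparison, Dp16 against WT, asked what the duplication does to the RNA of the chains. In edgeR's quasi-likelihood test on the counts, all 4 triplicated chains rose and 0 of the 5 other members were called, against 102 of 18983 genes called in either direction (0.537%) and 87 called higher (0.458%). Of the 5 other members, 1 (Jak1) had an unadjusted p under 0.05, as had 1819 of all genes, and DESeq2 called the same 4 members. Ifnar1 was 1.56-fold higher (95% interval 1.45 to 1.69; edgeR adjusted p = 8.81e-07), and Ifngr2 was 1.57-fold higher (1.44 to 1.73; edgeR adjusted p = 3.88e-06). Ifnar2 was 1.53-fold higher (1.36 to 1.71; edgeR adjusted p = 0.000153), and Il10rb 1.45-fold (1.25 to 1.69; edgeR adjusted p = 0.0146). Each interval held 1.5-fold, the ratio of 3 copies to 2 (0.585 on the log2 scale). The median log2 fold change of the 4 was 0.63, beside -0.01 over all genes tested. Il10rb was no longer called without Dp16 replicate 5 (edgeR adjusted p = 0.0518, 0.00019 to 0.12 over 30 alternatives). Nor was it called with a covariate for the range of the mouse identifier, whose meaning the labels do not give (edgeR adjusted p = 0.12). Its log2 fold change was then 0.499, beside 0.536 in the main fit. A range of that identifier held Dp16 mice only, so with this covariate those mice did not inform the contrast. In 28 of the 30 alternatives Il10rb stayed called. These included the fit without the 3 libraries nearly free of choroid plexus (log2 fold change 0.568). Left out alone, Dp16 replicate 6 gave 0.621 and WT replicate 6 gave 0.489, both called. Between these groups 188 genes (0.99%) did not overlap in CPM, among them Ifnar1, Ifnar2 and Ifngr2 and not Il10rb.

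The comparison of Dp16_2xIFNRs with Dp16 asked what the normalized receptor dosage does on the background of the duplication. In edgeR, 3 of 18983 genes passed (0.0158%, all of them lower), and these 3 were Ifnar1, Ifnar2 and Ifngr2. Ifngr2 fell to 0.626 of its Dp16 level (95% interval 0.568 to 0.690; edgeR adjusted p = 0.000136). Ifnar2 was at 0.644 of its Dp16 level (0.570 to 0.728; edgeR adjusted p = 0.00329) and Ifnar1 at 0.713 (0.656 to 0.775; edgeR adjusted p = 0.000841). Ifnar2 was no longer called with a covariate for the range of the mouse identifier (log2 fold change -0.60, edgeR adjusted p = 0.0753). Its adjusted p was 3.51e-09 to 0.0753 over the 30 alternatives in edgeR, DESeq2 and limma-trend. Il10rb was at 0.679 (0.579 to 0.796) without passing, with an unadjusted p = 7.07e-05 and an edgeR adjusted p = 0.277. Its adjusted p was 0.00491 to 0.909 over the 30 alternatives in edgeR, DESeq2 and limma-trend. Il10rb did pass without Dp16 replicate 6 (log2 fold change -0.64, edgeR adjusted p = 0.00593) and without the 3 libraries nearly free of choroid plexus (-0.61, edgeR adjusted p = 0.00911). Loss of 1 copy in 3 is -0.585 on the log2 scale, and the 95% interval of each of the 4 chains held it, that of Ifnar1 only near its lower end (-0.61 to -0.37). The median log2 fold change of the 4 was -0.60, beside -0.01 over all genes tested. Ifnar1, Ifnar2 and Ifngr2 were also among the 117 genes (0.616%) whose groups did not overlap in CPM.

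Dp16_2xIFNRs against WT asked whether the chains were back at the WT level. In edgeR 0 of the 9 members were called, against 186 of 18983 genes (0.98%). DESeq2 and limma-trend on the RPKM also called 0 members, and 1 member, Ifnar1, had an unadjusted p under 0.05, as had 3235 genes of the table. The log2 fold change was -0.02 for each of Ifnar2, Ifngr2 and Il10rb, with 95% intervals of -0.20 to 0.15, -0.16 to 0.12 and -0.25 to 0.21. Ifnar1 stood at 0.16 (95% interval 0.04 to 0.28, edgeR adjusted p = 0.181). Its adjusted p was 0.0434 to 0.375 over the 30 alternatives in edgeR, DESeq2 and limma-trend. Without WT replicate 2, the mouse with the highest WT value of Ifnar1, that gene was called at 0.21 on the log2 scale (edgeR adjusted p = 0.0434). None of the 9 members was among the 411 genes (2.17%) whose groups did not overlap in CPM. The 3 comparisons use each group in more than 1 contrast, so their values are not independent of each other.

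**Figure D2:**
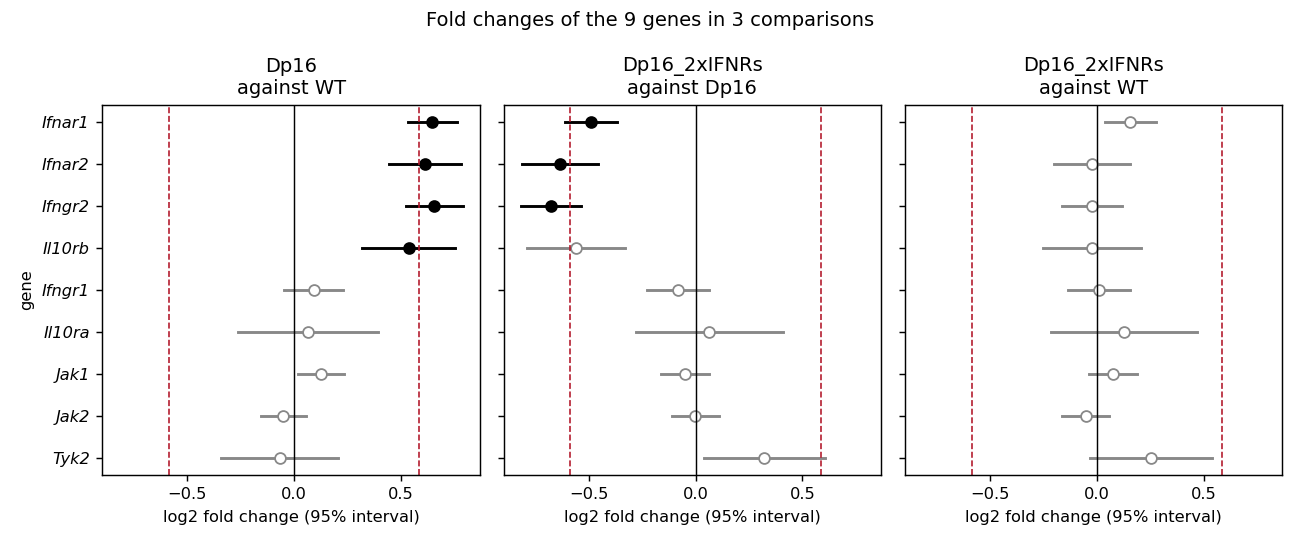
Log2 fold change (horizontal axes) of the 9 genes in Dp16 against WT, Dp16_2xIFNRs against Dp16 and Dp16_2xIFNRs against WT; points are edgeR estimates, bars their 95% intervals, filled black points passed an adjusted p of 0.05, open grey points did not, and dashed lines mark a 1.5-fold difference either way. The 4 triplicated chains sit near the right dashed line in the first panel (0.54 to 0.65), near the left one in the second (-0.68 to -0.49) and near 0 in the third, apart from Ifnar1 at 0.16.

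The partner chains encoded elsewhere showed no called difference. Ifngr1, the ligand-binding chain of the interferon gamma receptor, had 7.13, 7.36, 6.55, 6.64 and 6.79 RPKM in Dp16_2xIFNRs. It had 6.27, 7.24 and 7.62 RPKM (lowest, median, highest) in Dp16 and 6.04, 6.52 and 7.80 RPKM in WT, and all 3 ranges overlapped. Its log2 fold change was 0.09 in Dp16 against WT (95% interval -0.05 to 0.23, edgeR adjusted p = 0.696) and -0.08 in Dp16_2xIFNRs against Dp16 (-0.23 to 0.06, edgeR adjusted p = 0.657). Il10ra, the ligand-binding chain of the interleukin 10 receptor, had 1.06, 1.5, 1.78, 1.37 and 1.66 RPKM in Dp16_2xIFNRs, 1.04, 1.37 and 1.73 RPKM in Dp16 and 0.969, 1.28 and 1.75 RPKM in WT. The groups overlapped over nearly their whole ranges. Il10ra rested on 109 to 198 counts per library. In the edgeR fit it had the largest coefficient of variation between mice of all members (18.4%, beside 8.04% from counting). Its intervals were correspondingly wide, with a log2 fold change of 0.06 in Dp16 against WT (-0.26 to 0.39, edgeR adjusted p = 0.928) and 0.06 in Dp16_2xIFNRs against Dp16 (-0.28 to 0.41, edgeR adjusted p = 0.904).

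Jak1, the kinase of IFNAR2, IFNGR1 and IL10RA, had 42.0, 40.9, 42.8, 42.7 and 44.3 RPKM in Dp16_2xIFNRs, 41.0, 42.9 and 46.5 RPKM in Dp16 and 36.6, 40.3 and 42.1 RPKM in WT. Of the 6 Dp16 mice, 5 lay above the highest WT mouse in RPKM, but only 2 did in the scaled CPM of the edgeR fit. The log2 fold change of Jak1 in Dp16 against WT was 0.13 (95% interval 0.02 to 0.23), a difference that failed the adjustment (edgeR adjusted p = 0.449, unadjusted p = 0.0226). Jak2, the kinase of IFNGR2, had 8.72, 9.13, 8.66, 9.11 and 8.03 RPKM in Dp16_2xIFNRs, 7.77, 8.59 and 9.33 RPKM in Dp16 and 8.12, 9.21 and 9.58 RPKM in WT. It overlapped between all groups, and its log2 fold change was -0.05 in Dp16 against WT (edgeR adjusted p = 0.79) and -0.00095 in Dp16_2xIFNRs against Dp16 (95% interval -0.11 to 0.11, edgeR adjusted p = 0.996). Tyk2, the kinase of IFNAR1 and IL10RB, had 2.49, 4.60, 4.44, 3.62 and 3.07 RPKM in Dp16_2xIFNRs, 2.49, 2.75 and 3.65 RPKM in Dp16 and 2.80, 2.86 and 4.04 RPKM in WT. The 2 highest mice of all were Dp16_2xIFNRs mice, and the lowest mouse of that group was as low as the lowest Dp16 mouse. Its log2 fold change in Dp16_2xIFNRs against Dp16 was 0.32 and did not pass (edgeR adjusted p = 0.444, unadjusted p = 0.0287). The coefficient of variation of Tyk2 between mice was 15.9% in the edgeR fit, beside 4.24% from counting. Among the Dp16_2xIFNRs mice alone it was 22.9% in CPM, above the 18.8% of Il10ra.

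Ranked by mean RPKM, a level per length, Jak1 was the most abundant of the 9 in every group, at 42.5 RPKM in Dp16_2xIFNRs, 43.2 in Dp16 and 40.1 in WT. Next came Ifngr2, at 14.1 RPKM in Dp16_2xIFNRs, 22.0 in Dp16 and 14.2 in WT, and then Ifnar1, at 11.9, 16.4 and 10.6 RPKM in the same groups. Il10ra was the lowest of the 9 in every group, at 1.47, 1.38 and 1.33 RPKM. Between them the order in Dp16_2xIFNRs and WT was Jak2, Ifngr1, Ifnar2, Il10rb and Tyk2, and in Dp16 it was Jak2, Ifnar2, Ifngr1, Il10rb and Tyk2. Neighbours whose ranges over mice overlapped were Il10rb and Tyk2 in Dp16_2xIFNRs; Jak2 with Ifnar2, Ifnar2 with Ifngr1 and Ifngr1 with Il10rb in Dp16; and Ifngr2 with Ifnar1, Ifngr1 with Ifnar2, Ifnar2 with Il10rb and Il10rb with Tyk2 in WT. The order depends on the gene length behind the RPKM, whose definition is not given in the sources used here. The length implied for Il10rb was 1850 bases while its annotated exons cover 3808 bases, and for Ifnar1 these lengths were 3909 and 5940 bases. Scaled by all annotated exon bases, Il10rb ranked below Tyk2, Ifnar1 below Jak2 and Ifngr1 below Ifnar2 in Dp16_2xIFNRs and WT, while the order in Dp16 was that of the RPKM.

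The ratio of the paired chains within a mouse does not depend on library scaling. It was compared for 3 receptors in 3 comparisons by two-sided exact permutation tests on the log2 ratio, adjusted over these 9 tests by Benjamini-Hochberg. For the interferon gamma receptor, with 1 chain in the segment and 1 outside it, Ifngr2 over Ifngr1 was 1.86 to 2.14 in Dp16_2xIFNRs, 2.66 to 3.48 in Dp16 and 1.67 to 2.37 in WT (ratios of RPKM). The Dp16 mice did not overlap with either other group. The log2 ratio differed by 0.56 in Dp16 against WT (exact p = 0.00216, adjusted p = 0.0195) and by -0.60 in Dp16_2xIFNRs against Dp16 (exact p = 0.00433, adjusted p = 0.0195), in both cases the smallest p that these group sizes allow. Dp16_2xIFNRs against WT differed by -0.04 (exact p = 0.71, adjusted p = 0.714).

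For the interleukin 10 receptor, Il10rb over Il10ra was 2.27 to 4.21 in Dp16_2xIFNRs, 3.93 to 5.36 in Dp16 and 2.51 to 4.30 in WT. Scaled by all annotated exon bases the mean ratios would be 1.49 in Dp16_2xIFNRs, 2.24 in Dp16 and 1.64 in WT, with the same differences between groups. The Dp16 range overlapped the others at their ends, and the log2 ratio differed by 0.46 in Dp16 against WT (exact p = 0.00649, adjusted p = 0.0195) and by -0.62 in Dp16_2xIFNRs against Dp16 (exact p = 0.00866, adjusted p = 0.0195). The second of these did not pass without the 3 libraries nearly free of choroid plexus (-0.54, exact permutation, adjusted p = 0.0571). For the type I receptor both chains lie in the segment, and Ifnar1 over Ifnar2 was 2.00 to 2.44 in Dp16_2xIFNRs, 1.81 to 2.12 in Dp16 and 1.63 to 2.24 in WT. All 3 ranges overlapped. The log2 ratio differed by 0.03 in Dp16 against WT (exact p = 0.714) and by 0.14 in Dp16_2xIFNRs against Dp16 (exact p = 0.039, adjusted p = 0.0701). In this last comparison the ratio passed without Dp16 replicate 6 (0.17, exact permutation, adjusted p = 0.0195) and without the 3 libraries nearly free of choroid plexus (0.12, exact permutation, adjusted p = 0.0357).

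**Figure D3:**
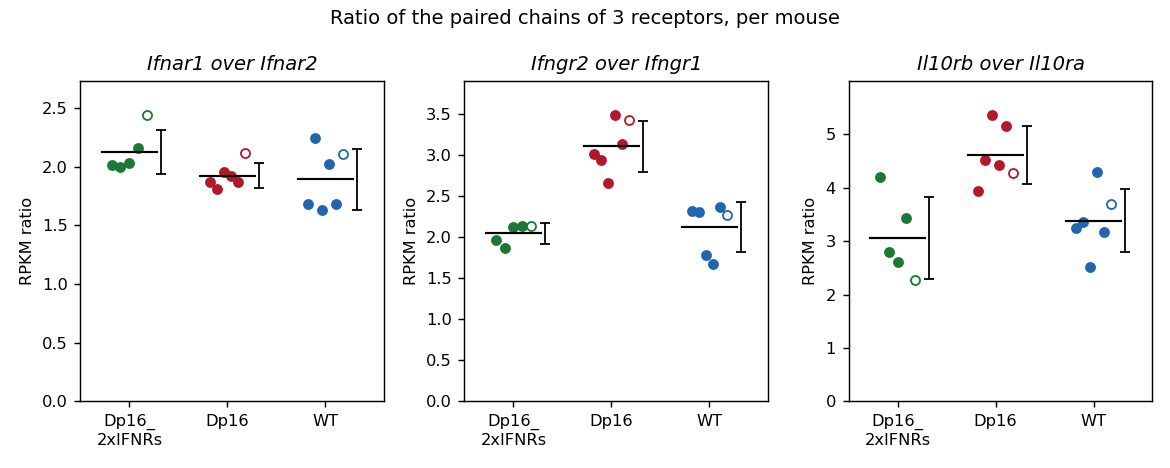
Ratio of the RPKM of the paired chains per mouse (vertical axes, from 0) for the type I interferon, interferon gamma and interleukin 10 receptors; points are mice, lines means, bars 1 SD, and open points the 3 libraries nearly free of choroid plexus markers. Ifngr2 over Ifngr1 of all 6 Dp16 mice (2.66 to 3.48) lies above every other mouse, whereas Ifnar1 over Ifnar2 overlaps between the 3 groups.

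By sex the triplicated chains moved in the same direction. In Dp16 against WT the log2 fold change in females and in males was 0.55 and 0.74 for Ifnar1, 0.52 and 0.71 for Ifnar2, 0.56 and 0.75 for Ifngr2, and 0.64 and 0.43 for Il10rb. In Dp16_2xIFNRs against Dp16 the same pairs of values were -0.45 and -0.52, -0.63 and -0.62, -0.61 and -0.74, and -0.71 and -0.38. No genotype by sex interaction passed in edgeR, neither for a member nor for any of the 18983 genes (0 called, with 566, 534 and 519 genes at an unadjusted p under 0.05 in the 3 comparisons). Averaged over genotypes, males and females differed in 0 of the 9 members (edgeR adjusted p = 1 for each, none with an unadjusted p under 0.05) and in 13 genes of the table.

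Ifnar2 and Il10rb were lowest where choroid plexus markers were nearly missing. In each of the 3 groups the library nearly free of choroid plexus markers was the lowest in Ifnar2, with 4.80 against 5.50 to 6.19 RPKM in the other Dp16_2xIFNRs mice, 7.34 against 8.18 to 9.11 RPKM in Dp16, and 4.62 against 5.21 to 6.58 RPKM in WT. The same libraries were the lowest in Il10rb, with 3.77 against 4.18 to 4.70 RPKM in Dp16_2xIFNRs, 4.44 against 6.18 to 7.06 RPKM in Dp16, and 3.58 against 4.23 to 5.00 RPKM in WT. Both were lowest in these libraries in CPM too. Il10ra was the lowest in 2 of the 3 in either unit. Ifnar1, Ifngr1 and Jak2 were each the lowest in 2 of them in RPKM, but in CPM Ifnar1 was in none and Ifngr1 and Jak2 in 1 each. Ifngr2, Jak1 and Tyk2 were lowest in none of them in either unit. In an edgeR fit added after seeing the data, with an indicator for these 3 libraries beside genotype and sex, Il10rb was lower in them by 0.36 ± 0.09 on the log2 scale (SE, edgeR adjusted p = 0.0238). The indicator gave -0.24 ± 0.07 for Ifnar2 (edgeR adjusted p = 0.103), -0.04 for Ifnar1 and 0.03 for Ifngr2 (edgeR adjusted p = 0.818 and 0.906). It called 607 of the 18983 genes (3.2%), 597 of them lower in the 3 libraries. In this fit all 4 chains were called in Dp16 against WT and in Dp16_2xIFNRs against Dp16, with Il10rb at -0.54 in the second (edgeR adjusted p = 0.0132). In whole tissue, fewer cells of a type and less RNA per cell cannot be told apart.

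**Figure D4:**
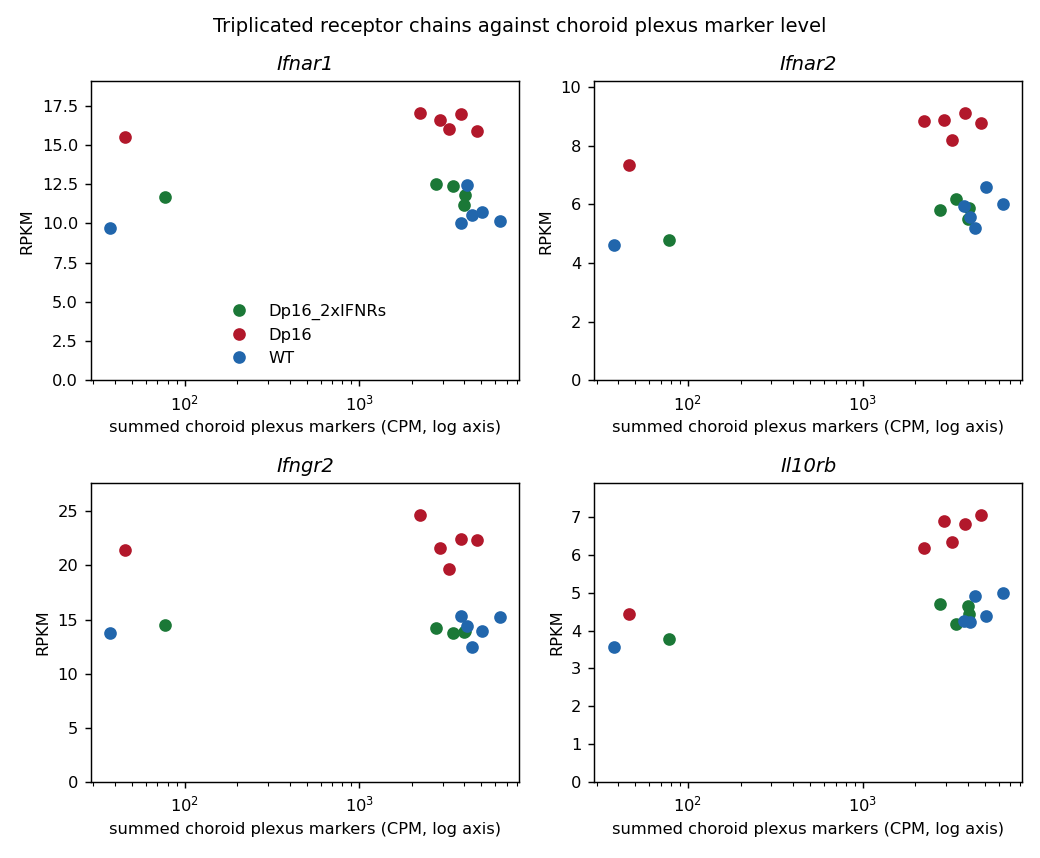
Level of the 4 triplicated chains (vertical axes, RPKM from 0) against the summed choroid plexus markers of the same library (horizontal axes, CPM, log scale), 1 point per mouse, coloured by group. The 3 libraries at 37.5 to 77.7 CPM are the lowest of their group in Ifnar2 and Il10rb and not in Ifngr2.

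Likeness between genes was measured over the 17 mice as the root mean square difference of log2 CPM, each gene centred on its WT mean, so it reflects the genotype as well as the single mouse. Among 15615 genes with at least 1 CPM, the genes nearest to Ifnar1 were Ifngr2 (0.148) and Ifnar2 (0.161). The genes nearest to Ifnar2 were Ifngr2 (0.136), Il10rb (0.147) and Ifnar1 (0.161), in that order. Those nearest to Ifngr2 were Ifnar2 (0.136), Ifnar1 (0.148) and Il10rb (0.208), and those nearest to Il10rb were Ifnar2 (0.147), Ifngr2 (0.208) and Ifnar1 (0.215). Only Il10rb, at rank 8 from Ifnar1, was preceded by genes that are not among the 4 chains. Outside the 9 members, the nearest to Ifnar1 were Tiam1 (0.181), Hlcs (0.195) and Cbr1 (0.200), all in the duplicated segment. For Ifnar2, Ifngr2 and Il10rb the nearest other genes lay outside the segment and were farther off: 4931440P22Rik (0.240), Hes7 (0.256) and Mcub (0.257) for Ifnar2, Lrrn4 (0.247), Mrgpre (0.257) and Tac2 (0.259) for Ifngr2, and Pm20d2 (0.235), Gpat3 (0.236) and Antxr2 (0.236) for Il10rb. For Il10ra they were Pvr (0.170), Ston2 (0.175) and Mafa (0.176).

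Within the span of the cluster the table holds 1 further gene that passed the filter, A930006K02Rik. It averaged 0.496 ± 0.149 CPM in the 5 Dp16_2xIFNRs mice, 0.898 ± 0.337 CPM in the 6 Dp16 mice and 0.708 ± 0.256 CPM in the 6 WT mice (± SD). These values overlapped and none of its differences passed (edgeR adjusted p = 0.763 in Dp16 against WT, 0.438 in Dp16_2xIFNRs against Dp16 and 0.44 in Dp16_2xIFNRs against WT). Just beyond the cluster, Tmem50b and Gart, chosen after their values were seen, stayed high in Dp16_2xIFNRs. Tmem50b averaged 132 CPM in Dp16_2xIFNRs, 142 in Dp16 and 92.7 in WT. Its log2 fold change was 0.61 in Dp16 against WT (edgeR adjusted p = 1.05e-05) and 0.52 in Dp16_2xIFNRs against WT (edgeR adjusted p = 0.000179). Gart, a purine synthesis enzyme, averaged 48.4, 49.9 and 32.6 CPM in the same groups. Its log2 fold change was 0.61 in Dp16 against WT (edgeR adjusted p = 3.22e-06) and 0.57 in Dp16_2xIFNRs against WT (edgeR adjusted p = 1.62e-05). The rise in Dp16 was thus not particular to the receptor chains.

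The ligands of these receptors were at or near the detection limit. Of 23 genes of type I, II and III interferons, interleukin 10 and interleukin 22, 16 had 0 counts in all 17 libraries and none passed the filter. The largest total was that of Il22, with 30 counts over the 17 libraries, and Ifng, the gene of interferon gamma, had 4. Of 5 further chains of the same receptor class, 2 were tested: Ifnlr1, the ligand-binding chain for type III interferons, averaged 0.0925 RPKM in Dp16_2xIFNRs, 0.0929 in Dp16 and 0.0724 in WT, and Il20rb averaged 0.861, 0.696 and 0.809 RPKM. Neither was called in any comparison by edgeR, DESeq2 or limma-trend, nor had an unadjusted p under 0.05. Interferon protein was not measured.

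Downstream of the receptors, 8 of 9 further transducers (Jak3, STAT proteins and Irf9) were tested and 0 were called in any comparison by edgeR, DESeq2 or limma-trend. Their median log2 fold change was 0.05 in Dp16 against WT, 0.08 in Dp16_2xIFNRs against Dp16 and 0.20 in Dp16_2xIFNRs against WT, beside medians over all genes within 0.01 of 0. The 3 most abundant were Stat3 (8.40 RPKM over all mice), Stat2 (5.86) and Stat5b (4.33). Stat2, a transducer of the type I interferon response, averaged 6.49 RPKM in Dp16_2xIFNRs, 5.58 in Dp16 and 5.62 in WT. Its log2 fold change was 0.20 in Dp16_2xIFNRs against WT and did not pass (edgeR adjusted p = 0.23). Of all 18983 genes, 1819 had an unadjusted p under 0.05 in Dp16 against WT, 1986 in Dp16_2xIFNRs against Dp16 and 3235 in Dp16_2xIFNRs against WT. At that level stood 0 transducers in Dp16 against WT, 2 in Dp16_2xIFNRs against Dp16 (Jak3 and Stat2) and 3 in Dp16_2xIFNRs against WT (Jak3, Stat2 and Stat5b).

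All 13 listed inhibitors of JAK signalling were tested, and 0 were called in any comparison by the same tools, with median log2 fold changes of -0.01, -0.01 and -0.03 in the order of comparisons above. The most abundant were the phosphatases Ptpn11 (38.3 RPKM over all mice) and Ptpn1 (11.2), the SUMO ligase Pias1 (11.6) and the ubiquitin ligase Cbl (8.77). At an unadjusted p under 0.05 stood Usp18, a protein that binds IFNAR2, in Dp16 against WT (log2 fold change 0.65, edgeR adjusted p = 0.407), Ptpn2 and Ptpn11 in Dp16_2xIFNRs against Dp16, and Ptpn2 and Cbl in Dp16_2xIFNRs against WT. Usp18 averaged 1.13 ± 0.533 RPKM (SD, n = 5) in Dp16_2xIFNRs, 1.14 ± 0.479 (n = 6) in Dp16 and 0.767 ± 0.378 (n = 6) in WT, a spread between mice as large as the difference. Of 17 other chains of receptors that signal through JAK kinases all were tested and 0 were called by any of these tools, with medians of 0.06, -0.03 and 0.05. Cntfr (28.5 RPKM over all mice), Il6st (9.01), Il11ra1 (7.88) and Lifr (5.59), chains for cytokines of the interleukin 6 family, were the most abundant. At an unadjusted p under 0.05 stood Lifr, Osmr, Il13ra1 and Csf2rb in Dp16 against WT, Epor in Dp16_2xIFNRs against Dp16, and Epor and Il13ra1 in Dp16_2xIFNRs against WT.

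Markers of the cells that carry these receptors were summed for each library. The 8 microglia markers summed to 307 to 372 CPM in Dp16_2xIFNRs, 317 to 383 CPM in Dp16 and 321 to 408 CPM in WT, and 5 endothelial markers to 175 to 211, 182 to 226 and 187 to 212 CPM. The 5 markers of border macrophages summed to 8.31 to 13.6 CPM in Dp16_2xIFNRs, 6.65 to 11.2 CPM in Dp16 and 6.39 to 9.16 CPM in WT, and the 8 markers of peripheral leukocytes reached at most 2.41 CPM in any library. In edgeR 0 markers of these lists, or of astrocytes, oligodendrocytes, neurons, choroid plexus and hippocampal regions, were called in any comparison. At an unadjusted p under 0.05 stood 3 markers in Dp16 against WT (Sall1, Gfap and Wfs1), 2 in Dp16_2xIFNRs against Dp16 (Mrc1 and Wfs1) and 7 in Dp16_2xIFNRs against WT. DESeq2 called 1 astrocyte marker (Gfap in Dp16 against WT) and 1 border macrophage marker (Mrc1 in Dp16_2xIFNRs against WT). The part of these markers in the values of the receptor chains was not tested.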

How the data were processed

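PolyA RNA of 17 mouse hippocampi was sequenced as paired reads of 150 bases from strand-specific libraries, per the labels' protocols. The submitters' processing notes name HISAT2 2.1.0, HTSeq 0.6.1, SAMtools 1.5, FastQC 0.11.5 and bcl2fastq, and build GRCm38. The deposited tables hold the authors' raw counts for each gene and RPKM made from these counts. Positions came from GENCODE M21, while the tables are named for M24. The counts were tested in R 4.3.3 with edgeR 4.0.16: filterByExpr (minimum count 10), TMM, a quasi-likelihood fit of genotype and sex to all 17 libraries (13 residual degrees of freedom), and Benjamini-Hochberg adjustment over 18983 genes, with a threshold of 0.05. The common coefficient of variation between mice was 14.1%. The duplicated segment was taken as chromosome 16 from Lipi to Zbtb21, 384 genes, of which 122 were tested. Ratios used exact permutation tests (scipy 1.17.1). RPKM served for levels per length, and fold changes came from the counts.

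Alternatives were DESeq2 1.42.0, limma 3.58.1 (trend, log2 of RPKM plus 0.1 or 1), other scalings, filters and covariates, and leaving out libraries. The scripts were tested on simulated data. All 9 members were named in each comparison, with the 4 most abundant genes per pathway list, the 3 nearest genes per triplicated chain and for Il10ra, and genes within the cluster; genes listed at an unadjusted p under 0.05 were chosen after their values were seen. The members and lists were chosen with earlier results of these data known. Reads carry no molecular identifiers, so counting errors cover counting only.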

Additional observations from a re-analysis of the deposited data

Results flagged for a closer look

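In each of the 9 genes and 3 groups the highest and the lowest mouse were set against the others of the group, in CPM, together with the 3 chain ratios (36 groups of values). Chance flags about 1 in 20 such groups. Ifnar1 of WT replicate 2 stood at 48.3 CPM, with the other WT mice at 39.1 to 42.4 CPM. It is the library whose removal let Ifnar1 pass in Dp16_2xIFNRs against WT. Il10rb of Dp16 replicate 6 stood at 8.47 CPM, with the other Dp16 mice at 11.6 to 13.1 CPM. This library was nearly free of choroid plexus markers (45.8 CPM). Tyk2 of WT replicate 4 stood at 21.7 CPM, with the other WT mice at 15.4 to 16.3 CPM.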

How the results depend on the processing

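The members' tests were repeated under 30 alternatives (13 settings and leaving out each of the 17 libraries) and each chain ratio under 21. The called members were other than those reported in 2 of the 30 repeats of Dp16 against WT (fewer in both), in 7 of Dp16_2xIFNRs against Dp16 (fewer in 1, more in 6) and in 1 of Dp16_2xIFNRs against WT. They numbered 3 to 4 in Dp16 against WT, 2 to 4 in Dp16_2xIFNRs against Dp16 and 0 to 1 in Dp16_2xIFNRs against WT, the 1 being Ifnar1 without WT replicate 2. Leaving out single libraries moved the log2 ratio of Ifnar1 over Ifnar2 between -0.0087 and 0.0836 in Dp16 against WT (reversed without WT replicate 3) and between 0.0924 and 0.17 in Dp16_2xIFNRs against Dp16. Without the 3 libraries nearly free of choroid plexus that ratio passed in the second comparison (0.12, exact permutation, adjusted p = 0.0357), and Il10rb over Il10ra no longer passed there (-0.536, exact permutation, adjusted p = 0.0571). The cause was not tested.

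With a covariate for the range of the mouse identifier, whose meaning the labels do not give, edgeR no longer called Il10rb in Dp16 against WT (adjusted p = 0.12) or Ifnar2 in Dp16_2xIFNRs against Dp16 (adjusted p = 0.0753). A range of the identifier held Dp16 mice only, so this covariate took those mice out of both contrasts. Il10rb in Dp16_2xIFNRs against Dp16 also passed with no filter (edgeR adjusted p = 0.0464) and by DESeq2 (adjusted p = 0.00491).

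The values that changed sign were small and uncalled. For Jak2 in Dp16_2xIFNRs against Dp16 they were 0.000471 with DESeq2 size factors, 0.00536 with no sex term, 0.0102 with age, 0.00132 with the replicate block, 0.0031 with only these groups, 0.0475 without the 3 libraries, 0.000271 by DESeq2 and 0.0253 and 0.0228 by limma-trend with 0.1 and 1 added; single libraries gave -0.0348 to 0.0272. Il10ra there gave -0.0153 with the replicate block, -0.0532 without the 3 libraries and -0.0457 to 0.169 over single libraries. With the identifier range, Il10ra gave -0.0154 and Tyk2 0.0077 in Dp16 against WT; single libraries gave -0.00405 to 0.154 and -0.155 to 0.00995. In Dp16_2xIFNRs against WT, Ifngr1 gave -0.00531 with the replicate block, -0.00459 without the 3 libraries and -0.0294 to 0.0545 over single libraries, and Il10ra gave -0.000465 without the 3 libraries. There single libraries gave -0.061 to 0.0291 for Ifnar2, -0.0636 to 0.00916 for Ifngr2 and -0.0676 to 0.0165 for Il10rb.

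Between groups, the mean correlation of deviations was 0.143 over 16 same-numbered pairs of mice (-0.317 to 0.652). It was -0.0243 over 80 pairs with other numbers (-0.517 to 0.628). Same-numbered WT and Dp16 mice were of the same sex, and replicate 6 of both groups was nearly free of choroid plexus markers. The deviations were taken from group means and adjusted for neither. Whether replicate numbers pair the mice was not tested, and the main fit did not use them. With the replicate block, edgeR called 4 members in Dp16 against WT, 4 in Dp16_2xIFNRs against Dp16 (Il10rb at -0.619, adjusted p = 0.0189) and 0 in Dp16_2xIFNRs against WT.

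Counts over all genes moved more than those of the members. In Dp16 against WT, 102 genes became 217 by DESeq2. In Dp16_2xIFNRs against Dp16, 3 became 14 with no filter and 6 by DESeq2. In Dp16_2xIFNRs against WT, 186 became 416 with no filter, 633 by DESeq2, 286 with the choroid plexus indicator and 114 with only these groups, and they became 517 without Dp16_2xIFNRs replicate 1, 119 without replicate 2, 101 without replicate 3 and 433 without WT replicate 4, each left out alone. The median of all genes stayed between -0.0199 and 0.0181 under every setting. Il10ra, at 109 counts in its lowest library, was the member most limited by depth.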
